A study of Mus musculus with 7 samples.

Results

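The genes described here are 37 mouse genes of ribosome production and cell growth that are widely listed as targets of the transcription factor Myc. They are given by symbol, from a list drawn up with earlier results of these data known, and all 37 were found among the 54838 genes of the deposited count table. By role they comprise 3 nucleolar chaperones, 4 genes of RNA polymerase I transcription, 4 of the box C/D snoRNPs, 5 of small subunit assembly, 12 of large subunit assembly, 3 that code for an RNA helicase, an exosome subunit and an RNA-modifying enzyme, and 6 of polyamine synthesis, nucleotide metabolism and nuclear import. The label "Myc target" rests on the gene names alone, since nothing in these data measured Myc binding.

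Ribosomes are built in the nucleolus, where RNA polymerase I transcribes the long precursor of the ribosomal RNAs. Small nucleolar RNPs (snoRNPs) guide its modification, a large complex called the small subunit processome cleaves it, and a series of assembly factors, helicases and the RNA exosome bring the small and large subunits to maturity. Myc binds DNA as a dimer with Max, preferentially at the E-box CACGTG, and raises transcription of many of these genes together with enzymes for polyamines and nucleotides. Pluripotent stem cells divide fast and are known for high ribosome production.

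RNA was sequenced from 7 mouse cultures. Induced pluripotent stem cell (iPSC) colonies were derived from splenic germinal center (GC) B cells of male mice on day 9 after immunization with SRBC, sorted as B220+ CD38- Fas+. The M colonies (n = 3) are read here as the colonies from GC B cells sorted with the Myc-GFP reporter, which marks cells activated by T follicular helper cells, because the design text names no other source beside bulk cells. The GC colonies (n = 3) came from bulk GC B cells. Both kinds of cell were held for 6 days on a feeder layer of mouse embryonic fibroblasts (MEF) with cytokines, were reprogrammed with doxycycline (Dox) over 10 days and then kept 4 days without it. Each colony is 1 picked clone, passaged 1 time on gelatin, with a pre-plating step of 45 min against leftover feeders. V6.5, an embryonic stem cell (ESC) line, is present as 1 library. All cultures were grown in serum medium that contained LIF, which keeps mouse stem cells undifferentiated. The labels name neither the donor mouse of a colony nor a batch, so p-values measure the spread among these colonies, and an effect of the source cell cannot be told apart from one of the donor.

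Totals per library were 31505623 to 33173123 counts in M colonies, 31612440 to 35728921 counts in GC colonies and 31139508 counts in ESC. The level of a gene is given below as CPM (counts scaled by library size) after TMM scaling of the 7 libraries. CPM is a share of each library, so a change of total RNA per cell would not appear in it, and fewer cells of a type cannot be told apart from less RNA per cell. Of 10 pluripotency markers all were detected in every library, with a summed level of 4724 to 5077 CPM in the colonies and 6461 CPM in ESC. The 15 B cell markers summed to 68.1 to 76.9 CPM in the colonies and 89.8 CPM in ESC, and Blk was at 0 in every library. Over 4 Y-linked genes, M colonies 2 and 3 held 0 counts, M colony 1 held 4292 counts, the GC colonies 3732 to 4699 counts and ESC 740 counts. Results are therefore also given without M colonies 2 and 3 where that changed them.

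The E-box is shown first because it is the sequence through which Myc is known to reach this kind of gene. RefSeq promoter windows on GRCm38.p6, running from 250 bases before to 50 bases after the gene start, were at hand for 30 of the 37 members. The motif CACGTG, which reads the same on both strands, was present in 11 of the 30 windows (36.7%), against 8.09% of 27025 genes with a window and 11.3% of the 12072 of them that were tested. In 114 other ribosome biogenesis genes with a window the share was 17.5%. Nme1, which has a pair of annotated starts, held 1 motif at each. Of the 12 motifs, 5 lay before the gene start and 7 after it. Each motif is given in capitals, 5′ to 3′ on the strand of the gene, with at most 12 flanking bases on each side.
Imp4, chr1:34439696-34439725, plus strand: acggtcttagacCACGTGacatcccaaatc
Pus1, chr5:110780576-110780605, minus strand: tccgccttcgtgCACGTGgtcagcttcggg
Nop2, chr6:125131811-125131840, plus strand: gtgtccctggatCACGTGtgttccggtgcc
Exosc5, chr7:25659097-25659126, plus strand: taaacgctgagcCACGTGctagggccaact
Grwd1, chr7:45830740-45830767, minus strand: gggccggagtcgCACGTGtgaaaccgga
Utp20, chr10:88826765-88826789, minus strand: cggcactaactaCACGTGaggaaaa
Pes1, chr11:3963965-3963994, plus strand: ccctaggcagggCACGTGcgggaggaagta
Mybbp1a, chr11:72441355-72441376, plus strand: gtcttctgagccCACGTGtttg
Nme1 (upstream start), chr11:93968273-93968302, minus strand: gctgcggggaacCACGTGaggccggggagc
Nme1 (downstream start), chr11:93968037-93968066, minus strand: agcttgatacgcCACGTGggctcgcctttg
Ipo4, chr14:55635653-55635682, minus strand: tgtcggagtctcCACGTGccgatcctcccc
Wdr43, chr17:71616220-71616249, plus strand: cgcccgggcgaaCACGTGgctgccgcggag
A match is a description of the sequence, not a measured binding site. The median log2 change between M and GC colonies was -0.001 over the 11 members with the motif and 0.03 over the 18 measured members whose window lacked it. Between colonies and ESC the medians were 0.13 over the 11 and 0.08 over the 18.

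Together the 37 members made up 1.27% to 1.32% of the scaled counts in M colonies, 1.24% to 1.31% in GC colonies and 1.21% in ESC. Their summed level was 13243, 12823 and 12729 CPM in M colonies 1 to 3, 12408, 12431 and 13058 CPM in GC colonies 1 to 3, and 12122 CPM in ESC. The sums of the M and GC colonies overlapped, and every colony stood above ESC. Ncl and Npm1 alone held between 38.9% and 41.0% of this sum in each library.

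**Figure D1:**
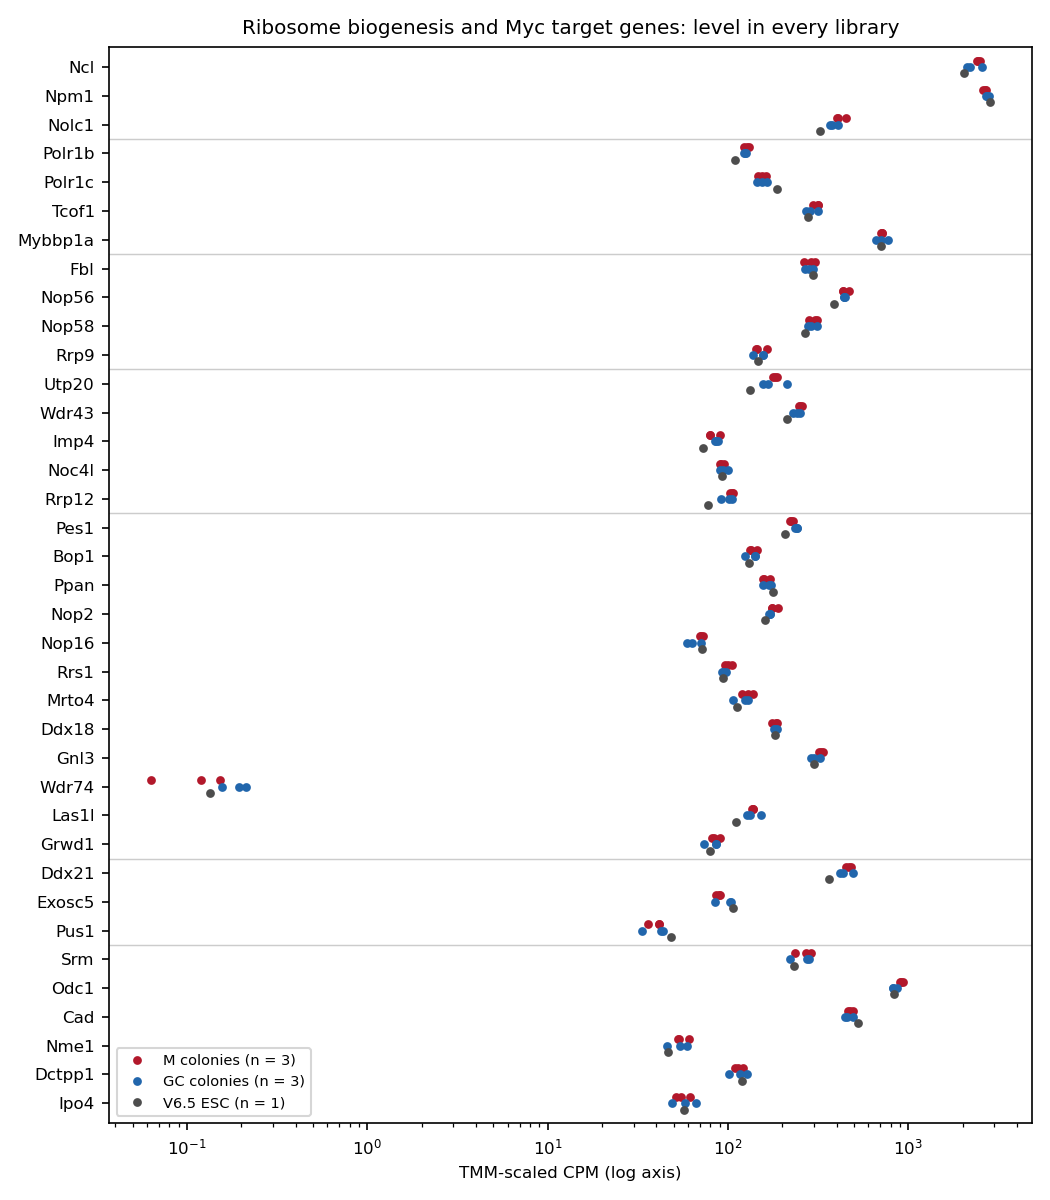
Level of each of the 37 members in the 7 libraries, in TMM-scaled CPM on a log axis, with 1 point per library and members grouped by role between grey lines. Ncl and Npm1 lie highest, at 2038 CPM or more, and Wdr74 lies lowest, at 0.213 CPM or less, while the red (M) and blue (GC) points of a gene mostly overlap.

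Npm1, which codes for the nucleolar chaperone nucleophosmin (ENSMUSG00000057113, chromosome 11 from 33152287 to 33163206), was the most abundant member. Npm1 was measured at 2664, 2704 and 2611 CPM in M colonies, 2739, 2693 and 2805 CPM in GC colonies, and 2839 CPM in ESC. The M and GC values overlapped and ESC was the highest library. Nucleolin, the product of Ncl, is an RNA-binding protein of the nucleolus that acts in transcription and early processing of ribosomal RNA. Ncl (ENSMUSG00000026234, chromosome 1 from 86344719 to 86359400) had 2488, 2429 and 2388 CPM in M colonies, 2107, 2195 and 2555 CPM in GC colonies, and 2038 CPM in ESC. GC colony 3 was the highest library for Ncl and GC colony 1 the lowest colony, so that the GC colonies spanned the M colonies.

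To compare genes with each other, levels were divided by the length of 1 annotated transcript per gene and averaged over the 7 libraries. Npm1 stood at 1667 CPM per kb, Odc1 at 394 CPM per kb and Ncl at 282 CPM per kb, the 3 highest of the members. Fbl, the methyltransferase of box C/D snoRNPs, followed at 238 CPM per kb and its scaffold partner Nop56 at 232 CPM per kb. At the low end were Imp4 at 14.2 and Ipo4 at 14.8 CPM per kb, below which stood only Wdr74 at 0.123 CPM per kb, a value whose limits follow with its counts. Ncl, Imp4 and Nop58 have long untranslated parts in the transcript used (8202, 5836 and 9507 bases, of which 2121, 873 and 1608 code), which lowers their value per kb.

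Wdr74, a factor of large subunit maturation, held 5, 4 and 2 counts in M colonies, 7, 7 and 5 counts in GC colonies, and 4 counts in ESC. These values sit close to the 3 counts that a count of 0 allows, and Wdr74 was the only member that did not pass the filter on low counts. Wdr74 is broadly expressed in other settings, no source used here gives the annotation or settings of the count, and whether these few counts reflect its RNA level was not tested. The 36 others are called the measured members.

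Imp4, which codes for a U3 snoRNP-associated protein of the small subunit processome, had 89.9, 79.9 and 79.4 CPM in M colonies, 88.6, 85.8 and 84.3 CPM in GC colonies, and 73.1 CPM in ESC. Every colony exceeded ESC, and M colonies 2 and 3 were the lowest of the colonies. Ipo4, an importin that carries proteins into the nucleus, had 61.2, 51.6 and 55.2 CPM in M colonies, 66.2, 57.6 and 48.8 CPM in GC colonies, and 56.7 CPM in ESC. All 3 groups overlapped for Ipo4. Of its exon bases 55.3% are shared on the same strand with Gm49378, listed at 0 counts in every library, so the level of Ipo4 depends on how such reads were assigned.

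Reads of near-identical copies are a further limit for some members. By alignment to annotated transcripts (at least 95% identity over at least 300 bases), 10 members had such copies. The 7 copies of Odc1 held counts equal to 15.1% of those of Odc1 itself, of which the pseudogene Gm7993 held 13.3%. A transcript of Tulp4 that matches Fbl over 690 bases belongs to a gene with 10.1% of the counts of Fbl, and the 4 copies of Npm1 held 2.83%. Exon bases of 16 members are shared with another gene, and no source used here states whether the counting used strand.

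The first question is whether iPSCs from Myc-GFP-sorted cells kept a difference in these growth genes, and it was addressed by setting M against GC colonies. None of the 36 measured members passed the edgeR threshold of an adjusted p of 0.05, against 3.97% of all 18166 genes tested (1.7% higher and 2.27% lower in M colonies). DESeq2 and limma-voom also called 0 members, and the smallest edgeR adjusted p was 0.227. At an unadjusted p under 0.05, 1 member (Odc1) was higher and 0 were lower, where 16.6% of all genes passed at that level. Changes of the 36 ran from -0.14 (Exosc5) to 0.14 (Nop16) on the log2 scale, with 23 positive and a median of 0.03, beside a median of 0.003 over all genes. The 95% intervals of all 36 changes lay between -0.32 and 0.31 on the log2 scale, so that the farthest bound was a 1.24-fold difference. That bound holds for each gene on its own and assumes the spread of these 6 colonies. Without M colonies 2 and 3, the median was 0.094. The only M library left in that fit was M colony 1. It was the highest colony for 18 of the 36 members, against 17.3% of all genes tested.

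**Figure D2:**
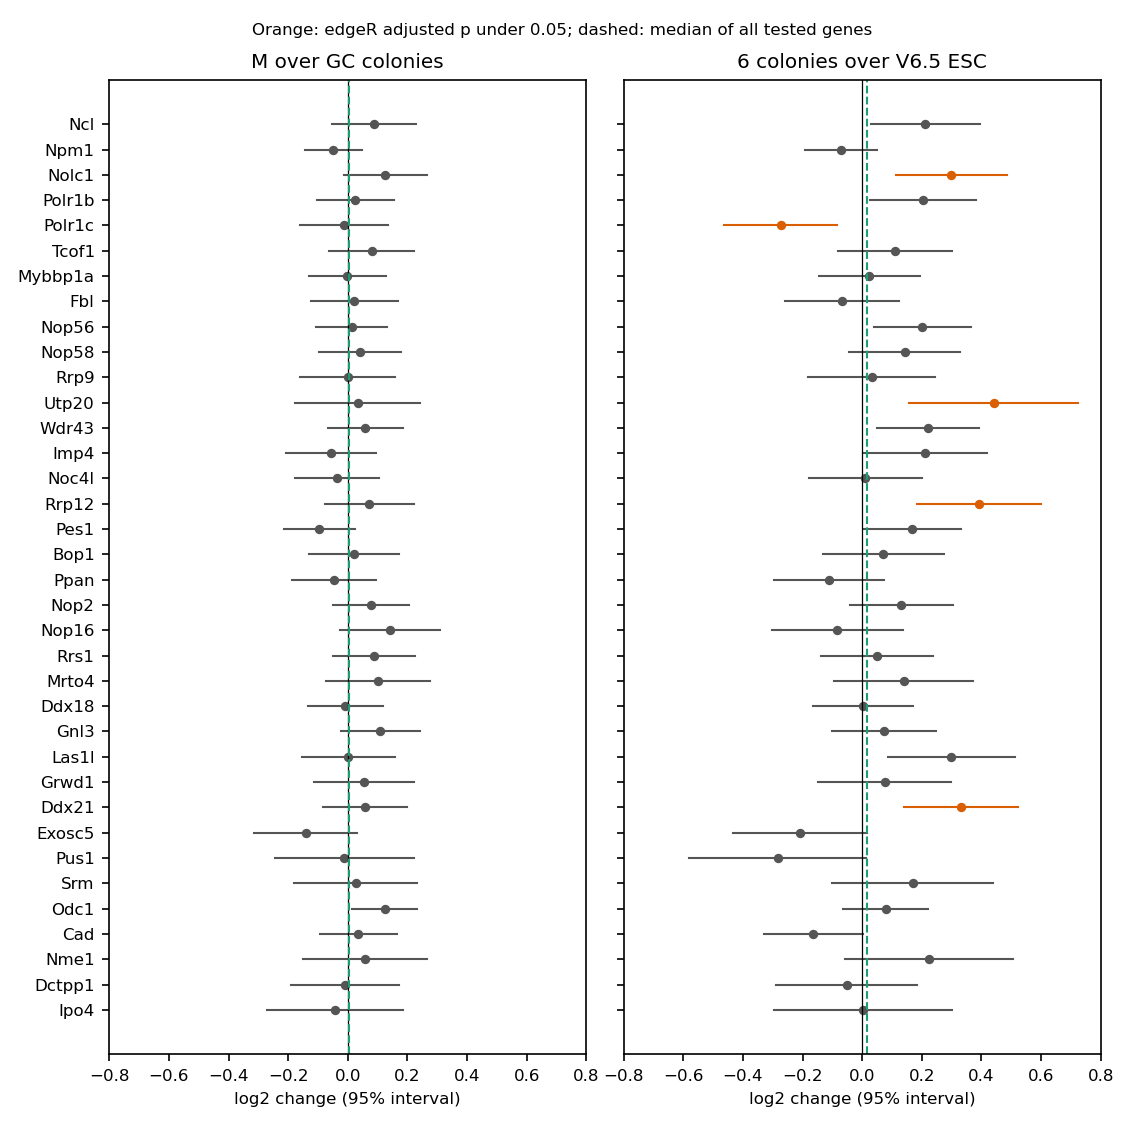
Log2 change of the 36 measured members with 95% intervals from the edgeR fits, on the left for M over GC colonies and on the right for the 6 colonies over ESC. All changes on the left lie between -0.14 and 0.14 with none past the threshold, and on the right 4 members past it (orange) are higher and 1 is lower.

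The M and GC values did not overlap for 3 of the 36 members, against 22.1% of all genes. Nop2 and Odc1 were higher in all M colonies, and Pes1 was lower in all of them, while 10.1% of all genes had every M colony above and 12% every M colony below the GC colonies. Odc1 codes for ornithine decarboxylase, the enzyme that commits ornithine to polyamine synthesis and a textbook target of Myc. Odc1 (ENSMUSG00000011179, chromosome 12 from 17544794 to 17551505) had 934, 898 and 913 CPM in M colonies, 868, 824 and 822 CPM in GC colonies, and 829 CPM in ESC. The lowest M colony stood above the highest GC colony, and ESC lay among the GC colonies. The log2 change was 0.12 ± 0.05 (SE), with an unadjusted p = 0.0285 and an edgeR adjusted p = 0.227. Nop2, a methyltransferase of the large ribosomal RNA, averaged 180.3 ± 7.9 CPM in M colonies and 170.6 ± 0.6 CPM in GC colonies (SD, n = 3 each). Its change of 0.08 ± 0.06 (SE) had an edgeR adjusted p = 0.582. Pes1, a member of the PeBoW complex that processes the precursor of the large subunit RNAs, averaged 225 ± 4 CPM in M colonies and 239.6 ± 3.9 CPM in GC colonies (SD, n = 3 each). Its change of -0.10 ± 0.05 (SE) had an edgeR adjusted p = 0.429.

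Among the nucleolar chaperones, the largest difference was in Nolc1, whose product (Nopp140) binds snoRNPs and RNA polymerase I. Nolc1 had 450.2, 400.2 and 406 CPM in M colonies and 375, 368 and 406 CPM in GC colonies. GC colony 3 equalled M colony 3 and exceeded M colony 2, and the change of 0.13 ± 0.06 (SE) had an edgeR adjusted p = 0.358. Ncl had a log2 difference of 0.09 ± 0.06 (SE) with an edgeR adjusted p = 0.561. Without GC colony 3, the highest library for Ncl, its change was 0.18 with an edgeR adjusted p = 0.0293, and Ncl was then the 1 member called. In that fit 8 members passed at an unadjusted edgeR p under 0.05, in either direction. That number was 1 with all 6 colonies and 0 to 2 when any other single colony was left out. Over all genes, 814 of 18762 were called without GC colony 3 and 721 of 18166 with all 6 colonies.

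Mybbp1a, which acts in the nucleolus in transcription and processing of ribosomal RNA, was the most abundant of the RNA polymerase I group. Its level was 716, 719 and 706 CPM in M colonies, 665, 702 and 771 CPM in GC colonies, and 701 CPM in ESC. The M colonies and ESC lay within the range of the GC colonies. Tcof1, which codes for treacle, a factor that promotes transcription of ribosomal DNA, and Polr1b and Polr1c, which code for polymerase subunits, had log2 differences of 0.08, 0.03 and -0.01 between M and GC colonies.

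Nop56 is a scaffold of the box C/D snoRNPs, which methylate ribosomal RNA. It was found at 472, 434 and 432 CPM in M colonies, 438, 441 and 444 CPM in GC colonies, and 385 CPM in ESC. M colony 1 was the highest library for Nop56, M colonies 2 and 3 were the lowest colonies, and ESC was below all colonies. Across the 4 members of this group, the changes between M and GC colonies lay between -0.001 and 0.04 on the log2 scale.

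Of the small subunit processome, Wdr43 was the most abundant by counts, at 257, 248 and 251 CPM in M colonies, 230.4, 242 and 252 CPM in GC colonies, and 212 CPM in ESC. GC colony 3 lay among the M colonies, GC colonies 1 and 2 below them, and ESC below all 6. Log2 differences between M and GC colonies ran from -0.06 (Imp4) to 0.07 (Rrp12) over the 5 genes of this group.

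Among the large subunit factors, Gnl3 and Nop16 had the largest differences. Gnl3 codes for nucleostemin, a nucleolar GTPase abundant in stem cells. It had 328, 319 and 338 CPM in M colonies, 299, 289 and 325 CPM in GC colonies, and 300.4 CPM in ESC. GC colony 3 lay among the M colonies, and the change of 0.11 ± 0.06 (SE) had an edgeR adjusted p = 0.417. Nop16, a nucleolar factor of large subunit assembly, had 70.0, 70.8 and 72.9 CPM in M colonies, 70.8, 63.3 and 59.0 CPM in GC colonies, and 71.7 CPM in ESC. GC colony 1 and ESC stood among the M colonies for Nop16, and its change of 0.14 ± 0.08 (SE) had an edgeR adjusted p = 0.396.

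Exosc5 codes for a core subunit of the RNA exosome, which trims ribosomal RNA from its end. Its level was 89.0, 90.2 and 86.0 CPM in M colonies, 103, 104 and 85.1 CPM in GC colonies, and 107 CPM in ESC. GC colony 3 was the lowest library, so that the groups overlapped, and the change of -0.14 ± 0.08 (SE) had an edgeR adjusted p = 0.426. Pus1, a pseudouridine synthase that acts mainly on tRNA, had a log2 difference of -0.01.

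Of the metabolic members other than Odc1, spermidine synthase (Srm), the pyrimidine synthesis enzyme Cad and the nucleoside diphosphate kinase Nme1 had log2 differences of 0.03, 0.04 and 0.06 between M and GC colonies. Dctpp1, which breaks down dCTP, and Ipo4 had differences of -0.01 and -0.04. None of these 5 had an edgeR adjusted p below 0.832.

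Colonies of the same group also differed among themselves. M colony 1 was the highest colony for 18 of the 36 members and the lowest for 0, against 17.3% and 17.2% of all genes tested. GC colony 3 was the highest for 7 members and the lowest for 16, against 19.3% and 20.9% of all genes. GC colony 1 was the lowest for 10 members and the highest for 5, against 16.9% and 17.0% of all genes. Deviations were taken as log2(CPM + 0.5) minus the mean of the 6 colonies. The largest among the colonies were in Utp20 (0.24 in GC colony 3 and -0.21 in GC colony 1), Srm (-0.24 in GC colony 3), Pus1 (-0.24 in GC colony 3) and Ipo4 (0.23 in GC colony 1).

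**Figure D3:**
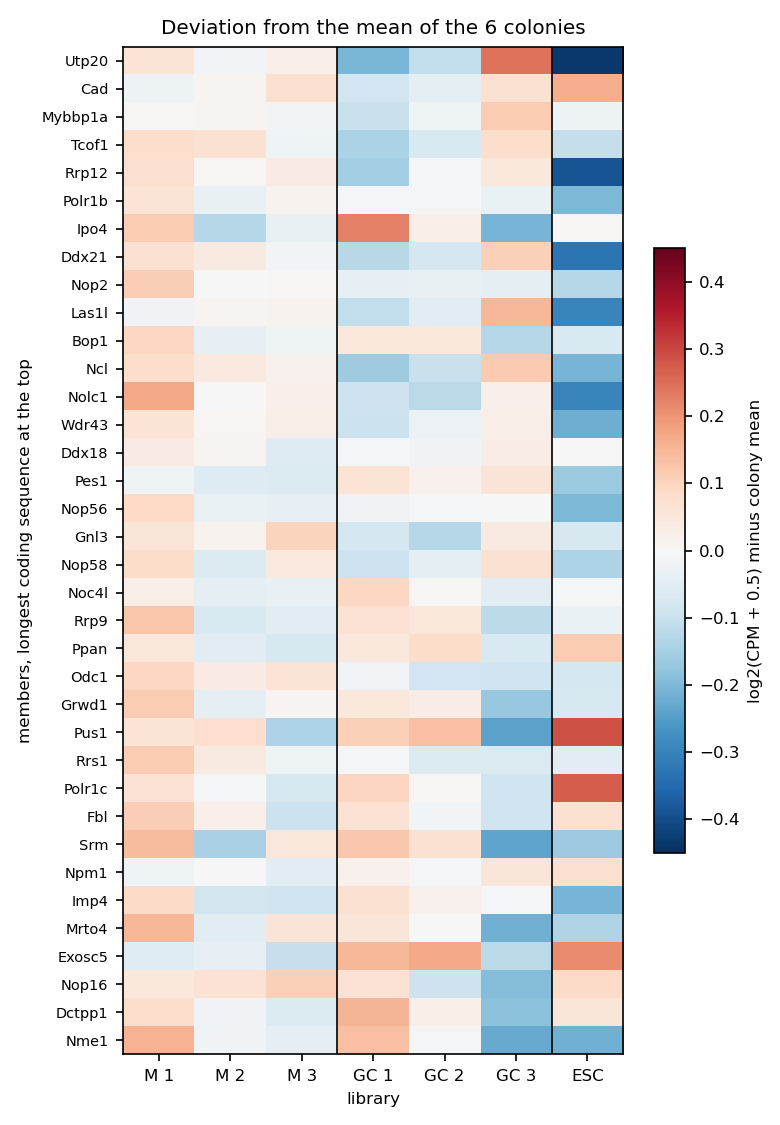
Deviation of each measured member from the mean of the 6 colonies on a log2(CPM + 0.5) scale, by library, with members ordered by the length of their coding sequence. M colony 1 is above the mean for nearly all members, and GC colonies 1 and 3 change colour in opposite directions from the longest (Utp20, 8367 bases) to the shortest (Nme1, 456 bases) gene.

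These deviations ran with the length of the coding sequence, and also with the length and base composition of the transcript. Over the 36 members, Spearman's rho of deviation with coding length was -0.21, 0.19 and 0.33 in M colonies 1 to 3. It was 0.67 in GC colony 3, -0.73 in GC colony 1 and -0.40 in GC colony 2, and it was -0.37 in ESC. With the share of G and C bases in the transcript, rho was 0.23, -0.16 and -0.24 in M colonies 1 to 3. It was 0.41, 0.55 and -0.52 in GC colonies 1 to 3 and 0.46 in ESC. With transcript length, rho was -0.63, -0.48 and 0.66 in GC colonies 1 to 3 and -0.56 in ESC. Which of these traits the deviations followed was not tested. The 12 longest members (2121 to 8367 coding bases) had a median deviation of 0.08 in GC colony 3 and -0.10 in GC colony 1. The 12 shortest (456 to 1323 coding bases) had a median deviation of -0.15 in GC colony 3 and 0.08 in GC colony 1. The members share a library and overlapping length classes, so rho is a description over genes and has no p. The same order was present over all 14673 protein-coding genes tested, with rho 0.31 in GC colony 3 and -0.31 in GC colony 1. It was also present in 136 other ribosome biogenesis genes, with 0.63 and -0.53 in those colonies. A single axis that set GC colony 3 against GC colony 1 held 63.0% of the variance of the members among colonies. Its part in the M and GC comparison was not tested. Without both colonies, a setting chosen after seeing the data, 1 GC library is left and the spread comes from the M colonies. In that fit the median log2 change of the members was 0.02.

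**Figure D4:**
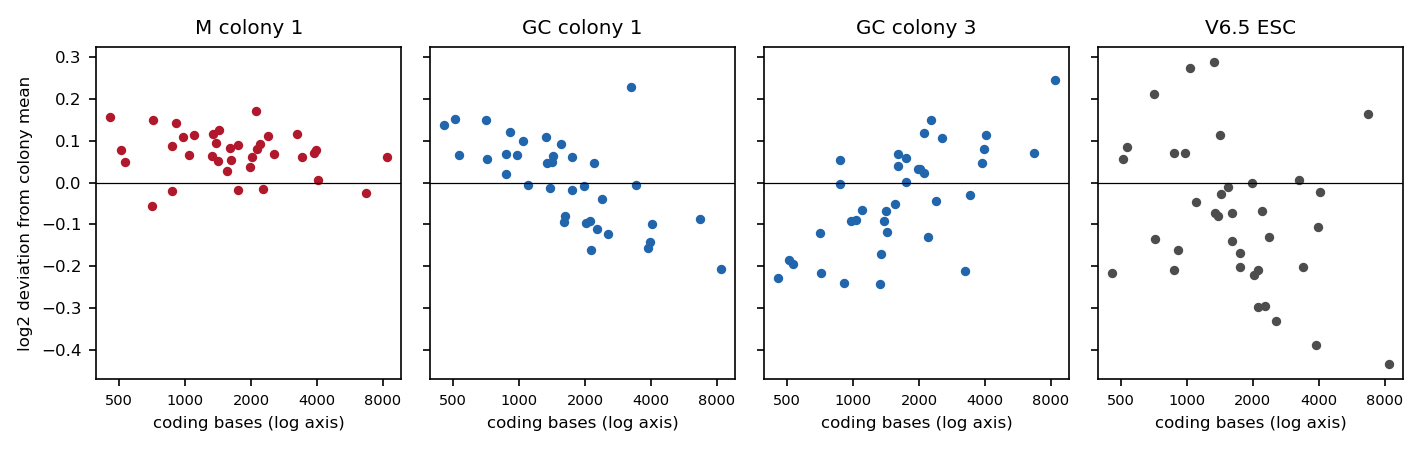
Deviation of the 36 measured members from the mean of the 6 colonies (log2 scale) against coding length in bases on a log axis, for M colony 1, GC colony 1, GC colony 3 and ESC. Longer genes lie lower in GC colony 1 (rho -0.73) and higher in GC colony 3 (rho 0.67), and M colony 1 lies above 0 at most lengths.

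The 6 colonies were next compared with ESC to ask how far growth genes of reprogrammed cells matched those of an established pluripotent line. Colonies had more RNA of Utp20, Rrp12, Ddx21 and Nolc1 and less of Polr1c. These 5 of 36 measured members (13.9%) passed the edgeR threshold, against 16.3% of 20502 genes tested, so the share was near that of all genes. Higher calls made up 8.76% and lower calls 7.56% of all genes. At an unadjusted p under 0.05, 11 members were higher and 1 was lower, against 28.6% of all genes in either direction. The median change of the members was 0.08 on the log2 scale, beside 0.02 over all genes, and 27 of the 36 were positive. With no filter on low counts these medians were 0.08 and 0.17, so that their order turned. All 6 colonies stood above ESC for 13 members and below it for 6, while ESC lay within the colonies for 17; over all genes tested, ESC lay outside the colonies for 51.4%, with 25.7% on each side. With 1 ESC library, the fit takes its spread from the colonies and assumes that ESC varies like them.

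Utp20 codes for a large scaffold protein of the small subunit processome (ENSMUSG00000004356, chromosome 10 from 88746607 to 88826804), and its E-box window is among those above. The colonies had 188, 178 and 183 CPM (M) and 156, 166 and 213 CPM (GC), and ESC had 133 CPM. Each colony exceeded ESC, with the lowest and the highest colony both in the GC group. Its log2 change was 0.44 ± 0.13 (SE), the largest of the members, with an edgeR adjusted p = 0.0359. The call ended without M colony 1 (change 0.43, edgeR adjusted p = 0.0530), without M colony 3 (change 0.44, edgeR adjusted p = 0.0616) and without M colonies 2 and 3 (change 0.46, edgeR adjusted p = 0.0723).

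Rrp12, which acts in maturation and export of ribosomal subunits in yeast (ENSMUSG00000035049, chromosome 19 from 41862851 to 41896173), followed in size. The colonies had 107, 102 and 105 CPM (M) and 91.6, 102 and 106 CPM (GC), against 77.9 CPM in ESC. GC colony 1 was the lowest of them and still above ESC. The log2 change was 0.39 ± 0.10 (SE), with an edgeR adjusted p = 0.0134, and it stayed past the threshold under all 15 alternatives run for this comparison.

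Ddx21, an RNA helicase that joins RNA polymerase I transcription to processing of the transcript (ENSMUSG00000020075, chromosome 10 from 62580251 to 62602281), was likewise higher. It was measured at 480, 471 and 453 CPM in M colonies, 420.1, 433 and 493 CPM in GC colonies, and 364 CPM in ESC. The log2 change was 0.33 ± 0.09 (SE), with an edgeR adjusted p = 0.0212, and it too stayed past the threshold under all 15 alternatives. For Nolc1 (ENSMUSG00000015176, chromosome 19 from 46075863 to 46085530), the colony values given above stood against 326 CPM in ESC. Every colony was higher, and the log2 change of 0.30 ± 0.09 (SE) had an edgeR adjusted p = 0.0317. Without GC colony 2 the change of Nolc1 was 0.31 with an edgeR adjusted p = 0.0532, and without GC colonies 1 and 3 it was 0.27 with an edgeR adjusted p = 0.0627.

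Polr1c, a subunit shared by RNA polymerases I and III (ENSMUSG00000067148, chromosome 17 from 46243920 to 46248054), was the 1 member called lower. Its level was 162, 154 and 147 CPM in M colonies, 166, 155 and 145 CPM in GC colonies, and 187 CPM in ESC. All colonies lay below ESC, and the log2 change was -0.27 ± 0.09 (SE) with an edgeR adjusted p = 0.0496. The call lies at the threshold and was lost under 10 of the 15 alternatives, with edgeR adjusted p up to 0.103 when 1 colony was left out. Its polymerase I partner Polr1b had 126 ± 3 CPM in the colonies (SD, n = 6) and 109 CPM in ESC, a change of 0.20 ± 0.08 (SE) with an edgeR adjusted p = 0.117.

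Las1l, part of the complex that cuts the spacer between the large subunit RNAs, came next in size without passing. It had 136, 138 and 138 CPM in M colonies, 127, 132 and 152 CPM in GC colonies, and 111 CPM in ESC. All colonies were above ESC, and the log2 change of 0.30 ± 0.10 (SE) had an edgeR adjusted p = 0.0567. Alternatives that moved this call are given with the processing. Wdr43 and Nop56 were also higher in every colony, by 0.22 ± 0.08 and 0.20 ± 0.08 (SE), with edgeR adjusted p of 0.0772 and 0.0881.

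By role, all 5 small subunit genes had positive changes against ESC, from 0.01 (Noc4l) to 0.44 (Utp20), and their summed level was 699 to 737 CPM in M colonies, 666 to 745 CPM in GC colonies and 588 CPM in ESC. Of 11 measured large subunit genes 9 had positive changes, from -0.11 (Ppan) to 0.30 (Las1l), with 0 called. Of the metabolic and import genes, Nme1 had the highest change (0.22, edgeR adjusted p = 0.286) and Cad the lowest (-0.16, edgeR adjusted p = 0.178). Pus1 had 41.3, 41.6 and 35.8 CPM in M colonies, 42.6, 43.5 and 33.4 CPM in GC colonies, and 48.4 CPM in ESC. Its level over the colonies was 39.7 ± 4.1 CPM (SD, n = 6), and all of them lay below ESC. Pus1 had the lowest change of all members, -0.28 ± 0.14 (SE), with an edgeR adjusted p = 0.196. Of its exon bases 23.8% overlap Gm26515, a lincRNA gene on the opposite strand.

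Against ESC taken alone, M colonies had 4 of 36 members called higher and 0 lower (16.2% of all genes called, 8.84% higher and 7.37% lower). GC colonies had 1 member called higher, Rrp12, and 0 lower (13% of all genes called, 7.53% higher and 5.51% lower). Both comparisons use the same ESC library. The changes of the 4 members called higher in M colonies were 0.46 (M) and 0.42 (GC) for Utp20, 0.43 and 0.35 for Rrp12, 0.36 and 0.30 for Ddx21, and 0.36 and 0.23 for Nolc1 on the log2 scale. The GC values for Utp20, Ddx21 and Nolc1 had edgeR adjusted p of 0.0632, 0.0507 and 0.117. The direct comparison of M with GC colonies called none of these 4.

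Other measurements moved with the comparison to ESC. The 12 members with the longest coding sequence, which include Utp20, Rrp12 and Ddx21, had a median log2 change of 0.17 in the colonies over ESC, and the 12 shortest a median of -0.06. Of 14 measured fibroblast markers 8 were higher in the colonies and 0 lower, with a summed level of 718 to 1017 CPM in the colonies and 498 CPM in ESC. Lum and S100a4, of the same list, stayed at or below 0.127 CPM in every library. Of the 10 pluripotency markers 7 were lower and 1 (Lin28a) higher in the colonies. The part of these in the changes of the members was not tested. In the comparison of M with GC colonies, 0 of the 14 fibroblast markers were called, and summed levels were 793 to 1017 CPM in M colonies and 718 to 856 CPM in GC colonies. Of the 14, 13 had positive log2 changes, with a median of 0.16. At an unadjusted p under 0.05, 2 of them passed, both higher in M colonies. Of the 10 pluripotency markers 2 (Pou5f1 and Klf4) were called higher and 0 lower in M colonies. At an unadjusted p under 0.05, 2 of the 10 were higher and 3 lower. Their log2 changes ran from -0.53 to 0.40, with 5 positive and a median of -0.01.

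The rest of the ribosome biogenesis pathway was taken from a list of 139 genes that holds none of the members, of which 136 were measured. In M over GC colonies 2 of the 136 were higher and 0 lower, against 3.97% of all genes in either direction, with a median log2 change of 0.009. Utp14b, in mouse an intronless relative of the processome gene Utp14a known for its need in sperm formation, was at 42.2, 38.3 and 37.6 CPM in M colonies, 20.6, 22.9 and 29.2 CPM in GC colonies, and 21.0 CPM in ESC. The lowest M colony exceeded the highest GC colony, with a log2 change of 0.70 ± 0.12 (SE) and an edgeR adjusted p = 0.00532. It stayed past the threshold under all 17 alternatives of this comparison, and it shares 3.18% of its exon bases with Acsl3 on the same strand. Mtrex, a helicase that feeds RNA to the exosome, had 161, 159.5 and 154 CPM in M colonies, 121, 122 and 141 CPM in GC colonies, and 151 CPM in ESC. Its change of 0.31 ± 0.07 (SE) had an edgeR adjusted p = 0.0299, which was lost under 7 of the 17 alternatives. Mtrex overlaps Plpp1 on the opposite strand over 7.06% of its exon bases.

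In the colonies over ESC, 7 of these 136 genes were higher and 4 lower, a called share of 8.09% against 16.3% of all genes, with a median log2 change of 0.06. The 5 largest rises were in Utp14b (0.55), the large subunit factor Noc3l (0.45), the processing factor Esf1 (0.43), the small subunit kinase Riok1 (0.42) and the processome gene Rrp7a (0.38). By the levels given above, Utp14b in GC colony 1 lay below ESC. The call of Utp14b was kept in 3 of the 6 fits that left out 1 colony. It was not called by limma-voom (limma-voom adjusted p = 0.0546). Noc3l was at 68.4 to 81.7 CPM in the colonies and 54.8 CPM in ESC, with an edgeR adjusted p = 0.0133. The 4 that fell were Nob1 (-0.44), which makes the final cut of the small subunit RNA, Urb2 (-0.41), Nip7 (-0.32) and the SUMO protease Senp3 (-0.27). Nob1 was at 102 to 109 CPM in the colonies and 142 CPM in ESC, with an edgeR adjusted p = 0.00200. Noc3l, Esf1, Nob1 and Urb2 stayed past the threshold under all 15 alternatives.

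**Figure D5:**
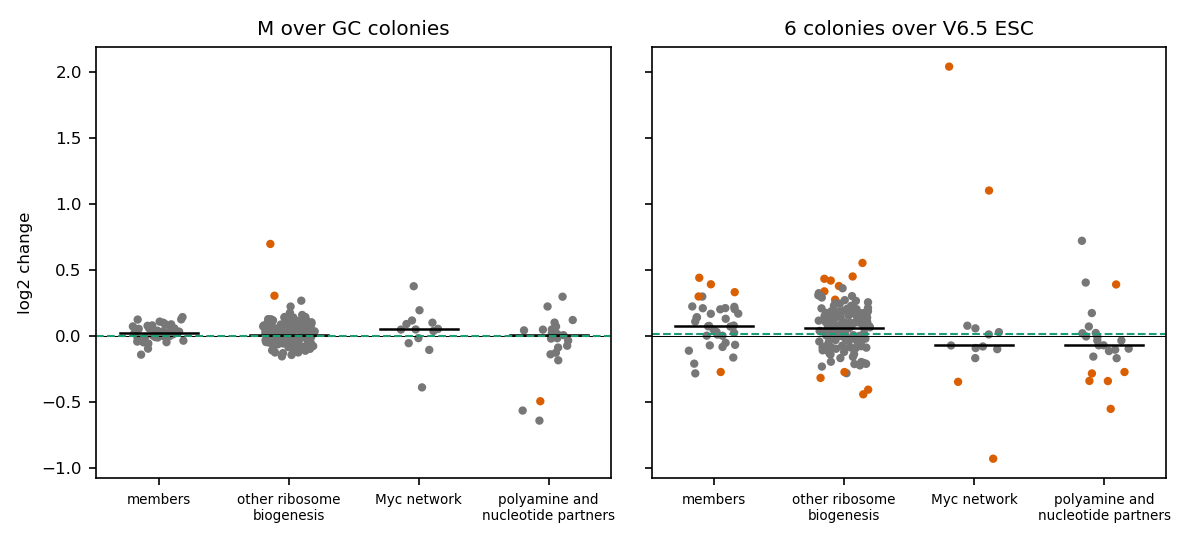
Log2 change of each measured gene of the members and of 3 related lists, on the left for M over GC colonies and on the right for the 6 colonies over ESC, with black lines at the list medians and a dashed line at the median of all genes. Orange points passed the edgeR threshold: none of the members, 2 other ribosome biogenesis genes (higher) and the polyamine gene Sms (lower) on the left, with Myc at 2.04 as the highest point on the right.

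Myc, Max and related genes, some of whose proteins compete with Myc for Max, form a network of 13 measured genes. Myc itself had 33.4, 31.9 and 35.3 CPM in M colonies, 27.6, 27.7 and 22.03 CPM in GC colonies, and 7.14 CPM in ESC. All M colonies were above all GC colonies, and all 6 were above ESC. Over ESC the log2 change was 2.04 ± 0.17 (SE), with an edgeR adjusted p = 9.44e-06. For M over GC colonies it was 0.38 ± 0.10 (SE) with an edgeR adjusted p = 0.0671. Myc was called with no filter on low counts (edgeR adjusted p = 0.00780) and by DESeq2 (adjusted p = 0.0154). It was not called when 1 colony was left out, with changes of 0.28 to 0.44 and edgeR adjusted p of 0.0843 to 0.264. The change was 0.37 without M colonies 2 and 3 and 0.27 without GC colonies 1 and 3. A count per gene cannot tell transcripts of a Dox-driven Myc transgene, if present, from those of the endogenous locus. Mycn, the Myc relative that is abundant in pluripotent cells, had 221, 194 and 188 CPM in M colonies, 195, 183 and 187 CPM in GC colonies, and 204 CPM in ESC, so that all groups overlapped. Max, the shared partner, was at 89.8 to 94.6 CPM in M colonies, 92.6 to 100.02 CPM in GC colonies and 92.8 CPM in ESC. Of the antagonists, Mxd4 was higher in the colonies than in ESC (1.10), and Mxd3 (-0.93) and Mxi1 (-0.35) were lower. None of the 13 passed between M and GC colonies, where 2 were higher and 1 lower at an unadjusted p under 0.05.

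Genes that work beside the metabolic members were followed in a list of 24, of which 23 were measured. Spermine synthase (Sms), which takes the product of Srm one step further, was the 1 gene called between M and GC colonies, and 0 were higher. Its level was 78.9, 66.9 and 66.8 CPM in M colonies, 95.9, 99.0 and 104 CPM in GC colonies, and 90.9 CPM in ESC. All M colonies lay below all GC colonies and below ESC, with a change of -0.49 ± 0.08 (SE) and an edgeR adjusted p = 0.00329. Sms is X-linked, and without M colonies 2 and 3, which lacked Y-linked counts, its change was -0.34 with an edgeR adjusted p = 0.166. Without GC colonies 1 and 3 the adjusted p of Sms in edgeR was 0.0979. Over ESC, Sat1, which acetylates spermidine and spermine, was higher in the colonies (0.39). Spermine oxidase Smox (-0.55), ribonucleotide reductase subunit Rrm2 (-0.34), the guanine nucleotide enzyme Impdh2 (-0.34), the pyrimidine enzyme Dhodh (-0.28) and the purine enzyme Paics (-0.27) were lower. The median log2 change of this list was 0.006 between M and GC colonies and -0.07 between colonies and ESC.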

How the data were processed

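The unit is the count: the authors deposited raw counts per Ensembl gene, with nothing normalized. The submitters' processing notes name STAR 2.7.10a, featureCounts 2.0.6, DESeq2 (no version) and the mouse build mm10 (GRCm38). Per the labels' protocols the libraries were poly-A, but one text calls them non-stranded and another names a directional kit. Among counts of 1 to 49, 68.5% to 72.2% were even, against 49.5% to 50.9% at 1000 or more, so the 2 mates of a pair may have been counted one by one. A count of 0 allows up to 3 counts (0.0840 to 0.0963 CPM), which covers counting error only.

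Symbols and positions came from GENCODE M21 on GRCm38 (54809 of 54838 IDs matched) and promoter windows from RefSeq. M and GC colonies were compared in a fit of 6 libraries, and colonies with ESC in a fit of 7, with filterByExpr, TMM and the two-sided quasi-likelihood test of edgeR 4.0.16 in R 4.3.3. Every "edgeR adjusted p" is Benjamini-Hochberg adjusted over all genes tested, with a threshold of 0.05, and SE is the size of a log2 change over the square root of F. Scripts were tested on simulated counts. Alternatives were other scalings and filters, DESeq2 1.42.0, limma-voom 3.58.1, halved counts, libraries left out and the colony number as a block.

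The 37 members and all lists were chosen with earlier results of these data known. Values in every library are given for members called between M and GC colonies, the 5 largest changes of each comparison, the 3 highest and 3 lowest per kb, and the most abundant of each role. Polr1c, Polr1b, Nop2, Pes1, Pus1 and Paics were added after their values were seen, although Pus1 is among the 5 largest changes of GC colonies over ESC. No set test was run.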

Additional observations from a re-analysis of the deposited data

How the results depend on the processing

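Between M and GC colonies, 0 members were called under 16 of 17 alternatives, and 0 to 1 (Ncl) when 1 colony was left out. The members' median log2 change stayed between 0.002 and 0.05, except 0.094 without M colonies 2 and 3, which leaves 1 M library assumed to vary like the GC colonies. Over all genes, 721 were called, 1318 with no filter, 1110 by DESeq2, 373 without M colonies 2 and 3, 112 without GC colonies 1 and 3, and 244 to 814 when 1 colony was left out. Other ribosome biogenesis genes called numbered 2, with 3 with no filter or DESeq2, 1 without M colonies 2 and 3, 1 without GC colonies 1 and 3, and 1 to 2 in the leave-outs. The labels do not say whether colony numbers pair M with GC colonies. Deviations of same-numbered M and GC colonies correlated at 0.0729, 0.075 and 0.1639, each M colony best with its own number. With this replicate block 0 members, 2 other ribosome biogenesis genes and 963 of all genes were called, with a member median of 0.03.

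Between colonies and ESC, members called numbered 5 with TMM, 10 by library size alone (which moved the median of all genes to 0.09, and no filter to 0.17), 3 without M colonies 2 and 3, 3 without GC colonies 1 and 3, and 3 to 7 in the leave-outs, lowest without GC colony 2 or M colony 3. Over all genes, 3344 of 20502 were called with TMM, 3156 of 20502 by library size alone and 3890 of 31957 with no filter. That total was 2575 to 3718 in the leave-outs, lowest without GC colony 2. Las1l was among the members called by library size alone, with no filter, with a CPM of at least 1 in 3 libraries, by DESeq2 and with halved counts. It was also called without GC colony 1 (edgeR adjusted p = 0.0345) and without GC colony 3 (edgeR adjusted p = 0.0261). The median was 0.15 by library size alone, 0.12 without M colonies 2 and 3, and 0.07 to 0.10 in the leave-outs. Other ribosome biogenesis genes called numbered 5 to 13 in the leave-outs, again lowest without those colonies. For M colonies over ESC, 4 members became 9 by library size alone, 7 with no filter, 7 by DESeq2, 2 without M colonies 2 and 3, and 3 to 9 in the leave-outs, highest without GC colony 3. For GC colonies over ESC, 1 became 7 by library size alone, 4 with no filter, 2 with the CPM minimum, 3 by DESeq2, 2 with halved counts, 0 without M colonies 2 and 3, 0 without GC colonies 1 and 3, and 0 to 4 in the leave-outs, 0 without GC colony 2 or M colony 3. No called gene that was followed through the alternatives changed direction. The median of the members stayed positive between M and GC colonies and between colonies and ESC. With no filter, however, the order of the members' and all-gene medians in colonies over ESC turned (0.08 and 0.17). The cause of these shifts was not tested. Calls of members rest on 1 ESC library. For M or GC colonies over ESC alone, the share of all genes called under these alternatives is not given.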
